A study of Drosophila melanogaster with 31 samples.

Results

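The brains of young male flies were compared after 30 min of odor and light and without it. Of the 31 RNA-seq libraries of the series, 6 belong to this comparison: 3 whole-brain libraries labelled 30 min (A, B and C) and 3 labelled 0 min (A, B and C), all taken by title. Every fly was a wild-type OreR male with a labelled age of 4 to 5 days (5-day in the titles), and no group carried a mutation or a transgene. Flies at 0 min had been kept sensory deprived and those at 30 min had been stimulated with odor and light for that time, so the stimulus is a mixture of 2 senses that cannot be told apart. The labels name neither the odor nor the number of brains per library. The 0 min libraries held 28.0, 22.5 and 62.0 M estimated counts (M, 1000000) and the 30 min libraries 19.3, 27.3 and 52.9 M. The design text names a pair of sequencing platforms for the brain series, and which library was run on which is not given in the sources used here.

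Neurons that become active switch on a small set of genes within minutes, first transcription factors that need no new protein and then their targets. In flies this set includes Hr38 and sr, the homologs of the mammalian NR4A and EGR factors, and cbt (cabut), a zinc-finger transcription factor. In a whole brain the active cells are diluted by the many cells that a stimulus does not reach.

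Markers of brain tissue were abundant in each of the 6 libraries. The pan-neuronal genes elav and nSyb lay between 517 and 795 CPM and between 2335 and 3096 CPM (CPM, normalised counts per 1000000), and repo, the glial transcription factor, between 61.1 and 145 CPM. Orco, the odorant co-receptor gene of the antenna, lay between 6.26 and 10.4 CPM. In bulk tissue, fewer cells of a type and less RNA per cell cannot be told apart.

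No gene passed the test at 30 min. Of 10431 genes tested with edgeR, 0 (0.00%) had an adjusted p under 0.05, and the smallest adjusted p was 0.879. At an unadjusted p under 0.05 there were 229 genes (2.20%), of which 109 (1.04%) were higher and 120 (1.15%) lower, where 522 would fall there if no gene differed. All 3 libraries at 30 min lay above all 3 at 0 min for 658 genes (6.31%) and below them for 310 (2.97%). DESeq2 called 13 genes (0.125%), all higher, each with a log2 fold change over 5. Among them were LysD at 27.62 and CG6295 at 28.19, where edgeR gave 6.33 and 7.19. The genes named next are therefore those of smallest unadjusted p among genes with a mean log2 CPM of at least 1, 12 in each direction, and are described by their values.

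**Figure D1:**
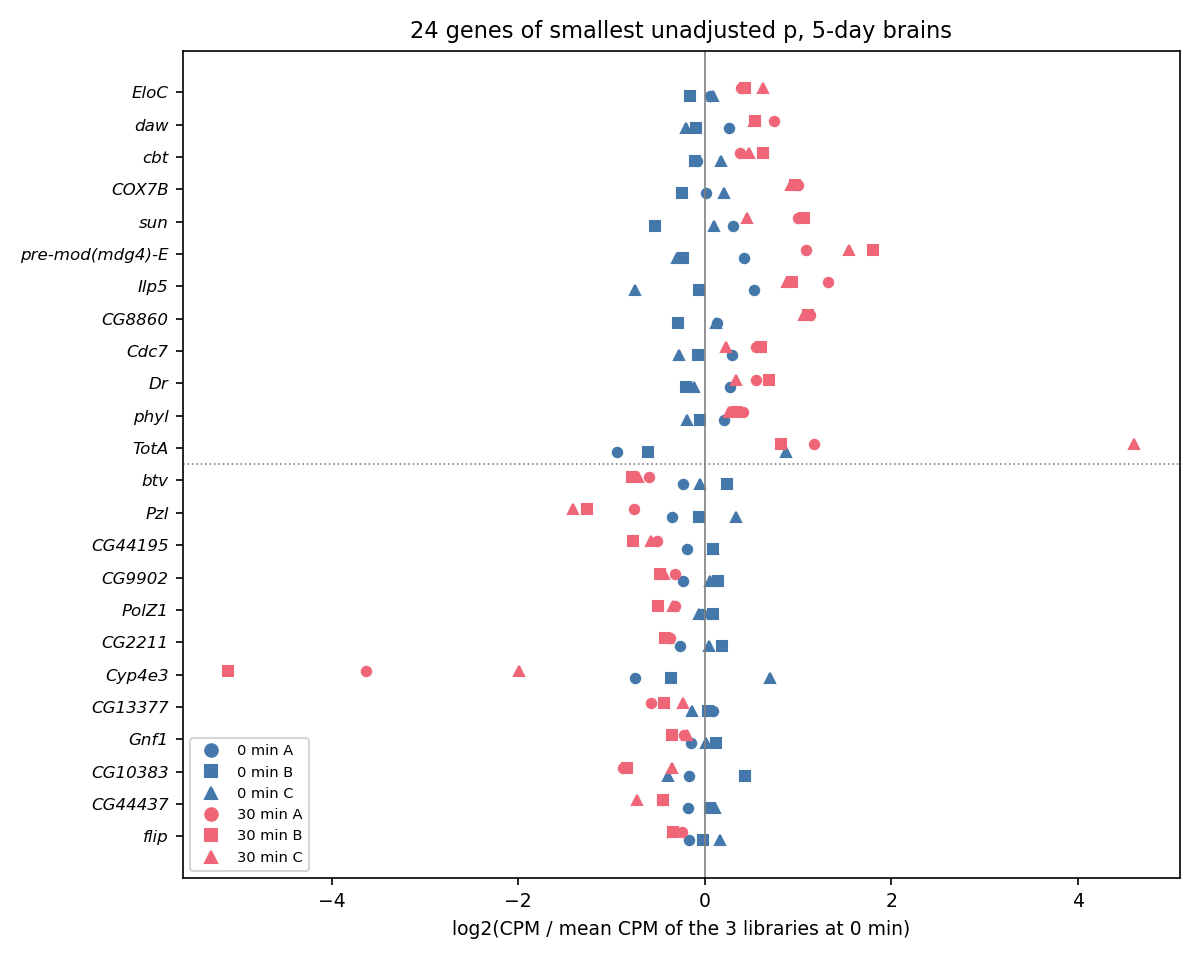
Level of each of the 24 genes of smallest unadjusted p in the 6 libraries, as log2 of CPM over the mean CPM at 0 min (blue, 0 min; red, 30 min; symbols mark libraries A, B and C; 0 is the 0 min mean). The groups are apart for 10 of the 12 higher and 11 of the 12 lower genes, most within 1 log2 unit, with TotA carried by 30 min C. The genes were chosen by p between these groups, so their separation follows from the choice. Of all genes tested, 6.31% lie above and 2.97% below without overlap.

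Among the higher genes, cbt stood at 62.3, 61.4 and 74.9 CPM at 0 min and at 85.8, 102 and 91.7 CPM at 30 min. The groups did not overlap, and the log2 fold change was 0.49 ± 0.15 (SE; unadjusted p = 0.00436, adjusted p = 0.879). The gene lies on chromosome 2L between 476446 and 479688, and 85.6% to 96.9% of its estimated counts fell on a single transcript in each library. The gene daw (dawdle), which encodes a TGF-beta ligand of the activin type, stood at 6.98, 5.45 and 5.08 CPM at 0 min and at 9.74, 8.46 and 8.43 CPM at 30 min. Its log2 fold change was 0.60 ± 0.17 (unadjusted p = 0.0028, adjusted p = 0.879). Again every stimulated library lay above every deprived library.

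Brains of 10-day and 25-day flies, also OreR males, were taken at 0 and 30 min with 2 libraries per group. They share no library with the 5-day comparison. In the 10-day brains cbt stood at 69.6 and 71.1 CPM at 0 min and at 95.8 and 98.1 CPM at 30 min. In the 25-day brains it stood at 63.0 and 89.3 CPM at 0 min and at 92.5 and 137 CPM at 30 min. Stimulated libraries were the higher ones at each age, with log2 fold changes of 0.46 ± 0.18 and 0.59 ± 0.18. Over the 8 older libraries alone the fold change was 0.53 ± 0.13 (unadjusted p = 0.000788, adjusted p = 0.84). Over the 14 libraries of all 3 ages it was 0.52 ± 0.10 (unadjusted p = 7.96e-05), the smallest p of that comparison, with an adjusted p of 0.831 by edgeR and 0.00392 by DESeq2.

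The gene daw gave the same order of libraries. It stood at 7.92 and 7.02 CPM at 0 min and at 8.15 and 10.6 CPM at 30 min in 10-day brains. In 25-day brains it stood at 7.32 and 6.35 CPM at 0 min and at 9.69 and 8.07 CPM at 30 min. The older libraries alone gave a log2 fold change of 0.35 ± 0.15 (unadjusted p = 0.03, adjusted p = 1). Over all 3 ages it was 0.44 ± 0.11 (unadjusted p = 0.00145, with an adjusted p of 1 by edgeR and 0.0289 by DESeq2).

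Of the 10431 genes, 3 (0.0288%) had every 30 min library above every 0 min library at each of the 3 ages, and they were cbt, daw and CG5853. None (0.00%) had every 30 min library below at each age. Taken singly, the ages held 658, 1693 and 416 genes without overlap above and 310, 2055 and 414 below at 5, 10 and 25 days, so the 3 genes are given as a description, with no test of their number. CG5853, singled out after its values were seen, stood at 1.003, 0.786 and 1.21 CPM at 0 min and at 1.41, 2.22 and 1.93 CPM at 30 min in 5-day brains. Averaged over the ages, edgeR tested 10431 genes and called 0 (0.00%), while an unadjusted p under 0.05 was reached by 241 higher (2.31%) and 54 lower genes (0.518%). DESeq2 called 28 (0.268%), 15 of them with a log2 fold change over 5. Bace, a member of the midgut list, was among the others. Of the 21 midgut genes tested, 12 were higher over the ages at an unadjusted p under 0.05. In 10-day brains their median level was 8.26 in 30 min A and -0.645 in 30 min B. Both are log2 relative to the mean of the brain libraries. The part of such tissue in the counts over the ages was not tested. In the 5-day comparison itself DESeq2 called neither cbt (adjusted p = 0.869) nor daw (adjusted p = 0.313).

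**Figure D2:**
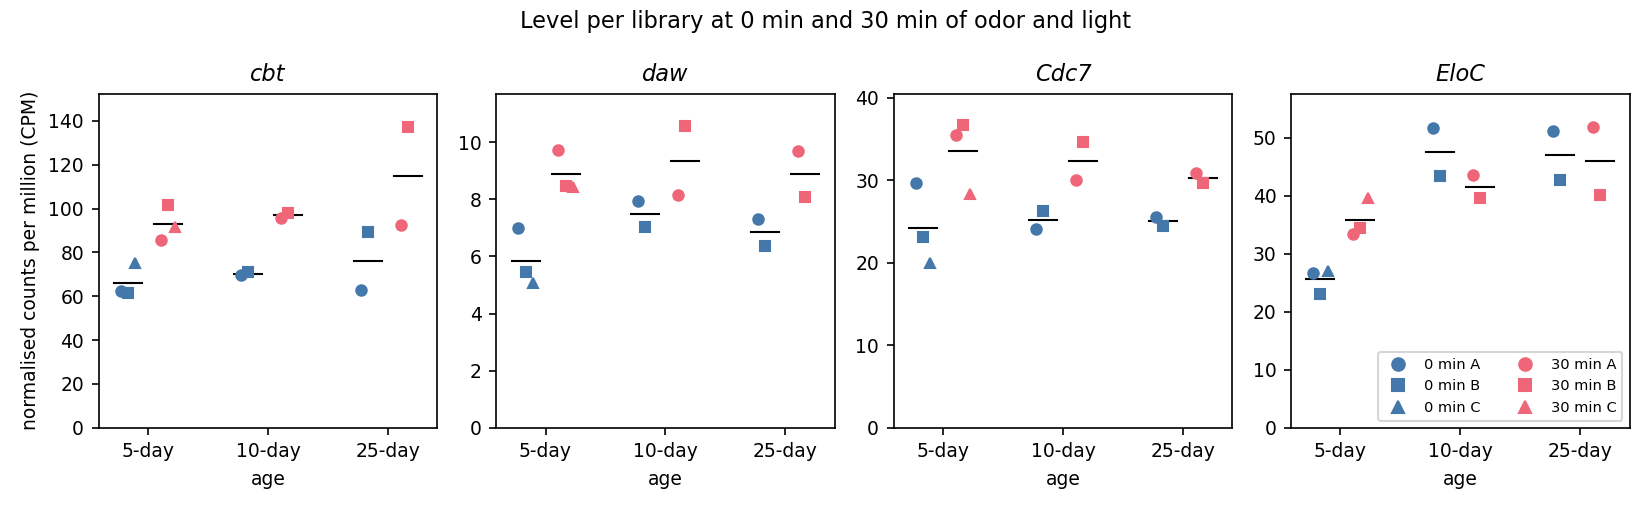
Level of 4 genes in CPM in each library of 5-, 10- and 25-day brains at 0 min (blue) and 30 min (red), with a line at each group mean. Stimulated libraries lie above deprived libraries at each age for cbt and daw, while EloC is separated at 5 days, where its 0 min libraries sit between 22.99 and 27.1 CPM.

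The activity-regulated list, 15 genes that fly neurons are known to raise on activation, had a median log2 fold change of 0.34, against -0.01 over all genes tested. Its members were at a positive value in 14 of 15 cases, 3 of 15 had an unadjusted p under 0.05 (cbt, Cdc7 and CG14186; 1.04% of all genes did so in that direction), and 0 passed. Cdc7, the kinase that fires replication origins, stood at 29.6, 23.1 and 19.9 CPM at 0 min and at 35.5, 36.7 and 28.3 CPM at 30 min (0.47 ± 0.16; unadjusted p = 0.0109). Its groups overlapped, since 30 min C lay below 0 min A. CG14186 stood at 335, 152 and 142 CPM at 0 min and at 403, 400 and 213 CPM at 30 min (0.69 ± 0.32; unadjusted p = 0.0439). Here too the C library was the lowest of the stimulated group and A the highest of the deprived group.

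The best-known activity markers varied widely within groups. Hr38 stood at 125, 20.4 and 13.5 CPM at 0 min and at 105, 71.7 and 23.2 CPM at 30 min (0.34 ± 0.75). The gene sr stood at 81.2, 40.8 and 30.3 CPM at 0 min and at 107, 93.3 and 39.5 CPM at 30 min (0.65 ± 0.46). Library A at 0 min was the highest of the 6 for Hr38, so the deprived group holds both the highest and the lowest level. The Fos and Jun genes, kay and Jra, were at 0.17 ± 0.19 and 0.17 ± 0.20, and Atf3, another bZIP factor gene, was at -0.20 ± 0.25. Arc1, whose product forms virus-like capsids at synapses, was at 0.59 ± 0.55, and hry (hairy), a HES-type repressor, at 0.51 ± 0.32.

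At the older ages, measured on separate libraries, the list was again mostly at positive values. In 11 of 15 members (73.3%) the log2 fold change was positive at both 10 and 25 days, against 25.2% of all genes tested. The medians of the list were 0.19 at both older ages. In the older libraries alone 4 members had the 5-day sign and an unadjusted p under 0.05. These were cbt, Cdc7 (0.32 ± 0.14; unadjusted p = 0.0386), CG14186 (0.61 ± 0.27; unadjusted p = 0.0409) and hry (0.75 ± 0.28; unadjusted p = 0.0149), none past adjustment, where 2.63% of all genes were higher and 0.412% lower at that p. The members are not independent of each other, and their level follows the library. Without 0 min B and C together, which leaves 0 min A alone, the median of the list was 0.01, the fold change of CG14186 was 0.01 and that of Cdc7 was 0.18, while cbt stood at 0.58 and daw at 0.35.

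**Figure D3:**
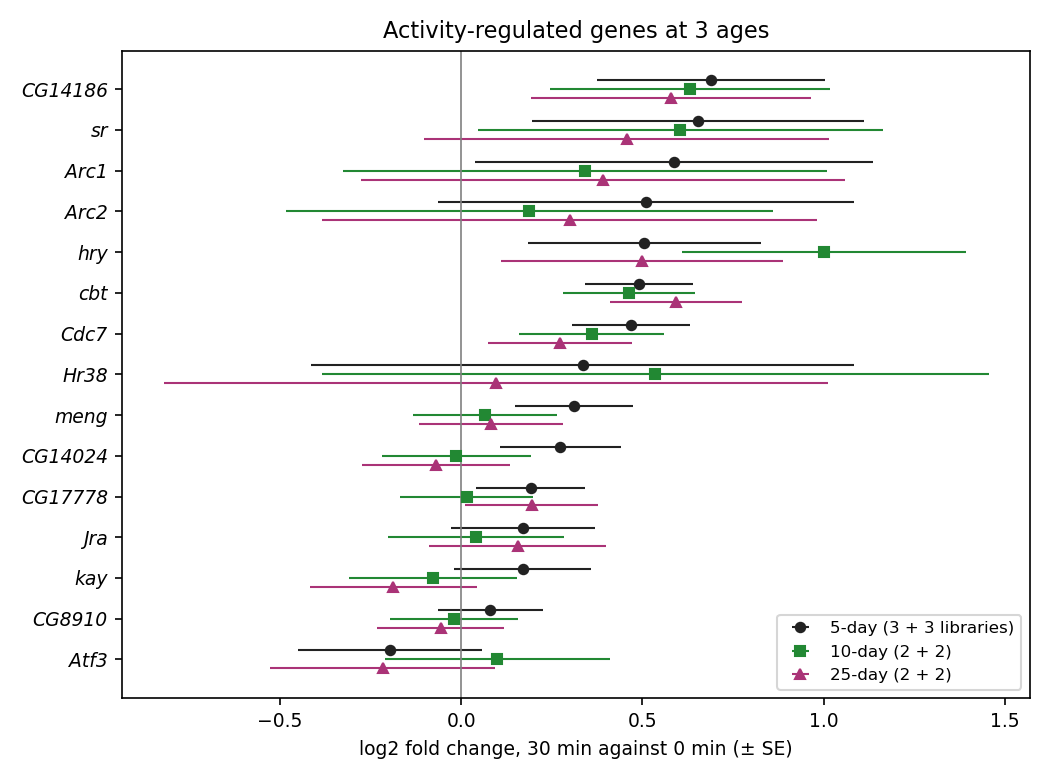
Log2 fold change of the 15 activity-regulated genes at 30 min against 0 min, with its SE, in 5-day (black), 10-day (green) and 25-day brains (purple). Most points lie right of 0 at all ages, with narrow bars for cbt and bars across 0 for Hr38.

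Several of the other higher genes were short, and most of them were not higher at the older ages. EloC encodes elongin C, the adaptor that links elongin B to cullin ubiquitin ligases and that also sits in a transcription elongation complex. It stood at 26.7, 22.99 and 27.1 CPM at 0 min and at 33.5, 34.4 and 39.6 CPM at 30 min (0.49 ± 0.13; unadjusted p = 0.00154). The groups were apart, but at 10 and 25 days the fold changes were -0.19 ± 0.16 and -0.03 ± 0.16. The difference from the 5-day response had an unadjusted p of 0.00381 at 10 days and 0.0212 at 25 days, with adjusted p-values that did not pass. Both differences use the 5-day libraries by which EloC was chosen, so these p-values partly follow from that choice. Of the 16 members of the elongin and cullin list, EloC was the only one with an unadjusted p under 0.05, and the list median was 0.00.

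COX7B, a subunit gene of cytochrome c oxidase, stood at 26.3, 22.004 and 30.05 CPM at 0 min and at 52.4, 51.2 and 49.5 CPM at 30 min (0.96 ± 0.29; unadjusted p = 0.00444). The gene sun (stunted), which encodes the epsilon subunit of the mitochondrial ATP synthase, was at 0.86 ± 0.28, from 17.9 ± 4.97 CPM to 32.4 ± 7.03 CPM (SD, n = 3). Ilp5, an insulin-like peptide gene of the insulin-producing cells of the brain, stood at 7.43, 4.91 and 3.07 CPM at 0 min and at 12.8, 9.82 and 9.43 CPM at 30 min (1.06 ± 0.35; unadjusted p = 0.00823). In 10-day and 25-day brains the fold changes of these 3 genes lay between -0.38 and 0.03. Dr (Drop), a homeobox gene, and phyl (phyllopod), the adaptor of the ubiquitin ligase Sina, were at 0.53 ± 0.19 and 0.34 ± 0.12.

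The 0 min group was itself at an extreme for these genes. Among the 9 brain groups of the series, its mean was the lowest for 10 of the 12 higher genes and the highest for 9 of the 12 lower genes, against 14.6% and 12% of all genes tested. This rests in part on how the genes were chosen, which used the same 0 min libraries. EloC stood at 25.6 ± 2.26 CPM at 0 min and at group means between 27.4 and 47.6 CPM in the other 8 groups. When 30 min was set against the mean of 10, 20 and 45 min, a comparison without the 0 min libraries, 0 genes (0.00%) passed and 49 (0.470%) had an unadjusted p under 0.05. EloC was then at 0.20 ± 0.10, cbt at 0.09 ± 0.12 and daw at 0.23 ± 0.14. Within the 5-day series, cbt had group means of 66.2, 69.8, 104, 93.1 and 92.4 CPM at 0, 10, 20, 30 and 45 min, and daw 5.84, 7.53, 7.57, 8.87 and 7.63 CPM.

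Lower genes were led by btv (beethoven), which encodes the dynein heavy chain that returns cargo inside sensory cilia. It stood at 6.06, 8.40 and 6.83 CPM at 0 min and at 4.67, 4.13 and 4.32 CPM at 30 min (-0.70 ± 0.18; unadjusted p = 0.00129, adjusted p = 0.879). The groups did not overlap. In 10-day and 25-day brains btv was at 0.37 ± 0.22 and -0.01 ± 0.22. Of the 7 dynein heavy chain genes tested, 6 were at a negative value, and btv was the only one with an unadjusted p under 0.05.

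Pzl (Piezo-like), a gene related to the mechanosensitive Piezo channels, stood at 4.12, 5.01 and 6.60 CPM at 0 min and at 3.10, 2.18 and 1.97 CPM at 30 min (-1.13 ± 0.35). CG44195 stood at 197, 240 and 240 CPM at 0 min and at 159, 133 and 151 CPM at 30 min (-0.61 ± 0.19). PolZ1, the catalytic subunit gene of DNA polymerase zeta, was at -0.39 ± 0.12, and Gnf1, the large subunit gene of the clamp loader, at -0.25 ± 0.09. Cyp4e3, a cytochrome P450 gene, had the widest range of the lower genes, from 11.1, 14.6 and 30.6 CPM at 0 min to 1.52, 0.546 and 4.72 CPM at 30 min (-3.02 ± 1.005). Of the 12 lower genes, 4 (33.3%) were at a negative value at both older ages, against 30.8% of all genes tested. Of these 12, 0 had an unadjusted p under 0.05 there with the 5-day sign.

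Several lists of housekeeping complexes had positive median log2 fold changes at 30 min, and none of their members passed the test. Cytosolic ribosomal protein genes had a median log2 fold change of 0.70. Against the same 0 min libraries it was 0.514, 0.325 and 0.617 at 10, 20 and 45 min, so it was not particular to 30 min. Of the 86 tested, 32 lay above at 30 min without overlap (6.31% of all genes did) and 0 passed. Against 1.04% of all genes tested, 3 of the 86 were higher at an unadjusted p under 0.05. Their summed level was 21859, 14188 and 12914 CPM at 0 min and 21956, 22062 and 23905 CPM at 30 min, so 0 min A was level with the stimulated libraries while B and C were low. RpL8 shows the pattern at its widest, with 404, 64.0 and 10.7 CPM at 0 min and 394, 398 and 271 CPM at 30 min. Without 0 min B and C together the median of the list was 0.09.

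Oxidative phosphorylation genes had a median of 0.60 (24 of 71 above without overlap, 6 higher at an unadjusted p under 0.05). At that p, 1.04% of all genes tested were higher, and 59 of the 2086 genes with the shortest transcripts. The oxidative phosphorylation median was 0.14 without 0 min B and C. ND-75, a subunit gene of complex I, stood at 414, 164 and 34.4 CPM at 0 min and at 417, 440 and 264 CPM at 30 min. Mitochondrial ribosomal protein genes had a median of 0.29 (27 of 72 above) and proteasome genes 0.32 (12 of 38 above). The mitochondrial ribosomal genes summed to 1220, 1245 and 1475 CPM at 0 min and to 1324, 1285 and 1569 CPM at 30 min, with 0 min A the lowest. Without 0 min B and C their median was 0.18 and that of the proteasome 0.09. Sod1, the copper-zinc superoxide dismutase gene, stood at 72.6, 21.4 and 24.5 CPM at 0 min and at 106, 109 and 97.2 CPM at 30 min (1.40 ± 0.55; unadjusted p = 0.0212), and HDAC6, the tubulin deacetylase gene, at 242, 135 and 63.9 CPM and at 239, 229 and 197 CPM. Neuron markers had a median of -0.14 (11 of 12 at a negative value) and synaptic vesicle genes one of -0.10 (20 of 24), and 0 members of either list had an unadjusted p under 0.05. Library 30 min C was the lowest of the 6 for both lists, and without it the medians were 0.04 and 0.003. At the older ages the medians of both ribosomal lists, the proteasome and oxidative phosphorylation lay between -0.13 and 0.07. In 5-day brains at 10, 20 and 45 min, against the same 0 min libraries, the medians of these lists lay between 0.183 and 0.617.

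**Figure D4:**
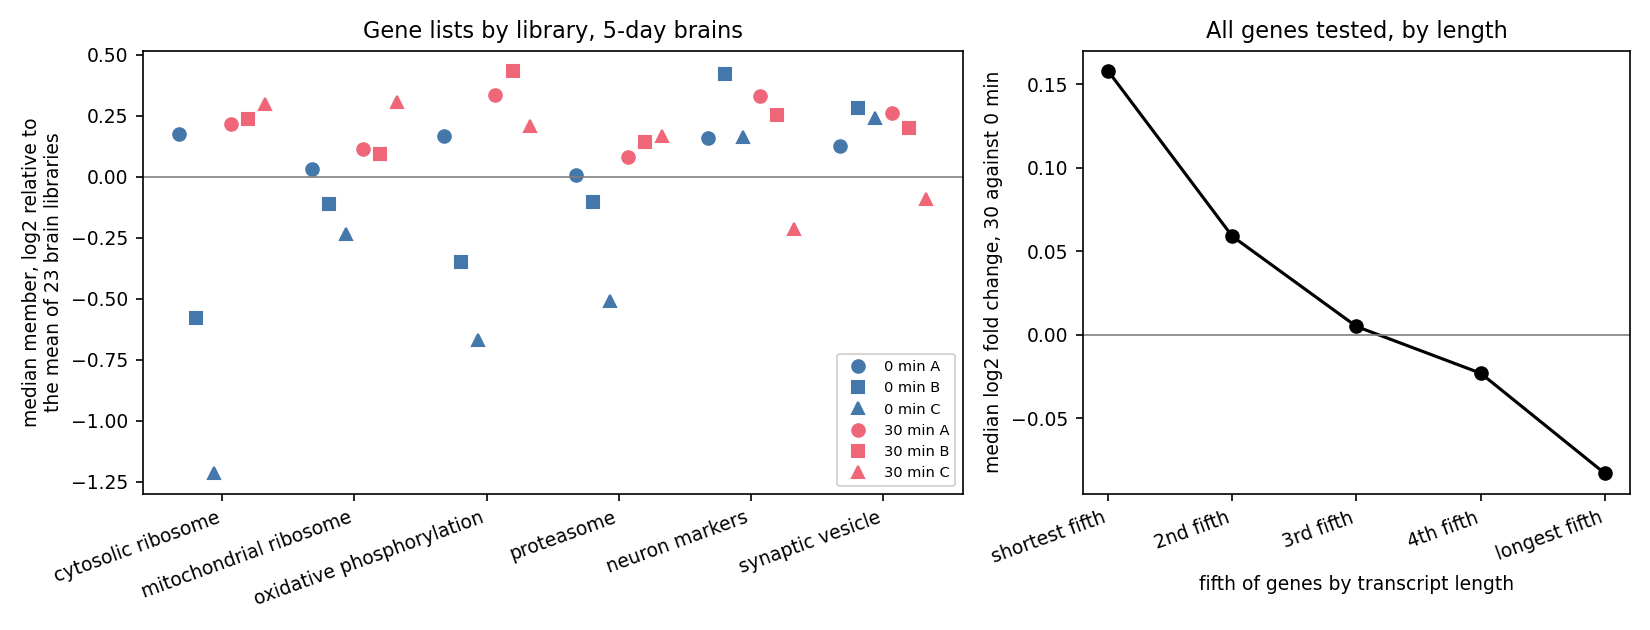
Left, median level of the members of 6 gene lists in each 5-day library, as log2 relative to the mean of the 23 brain libraries (blue, 0 min; red, 30 min). Right, median log2 fold change at 30 min for 5 equal classes of all genes by transcript length. Libraries 0 min B and C sit lowest for the ribosome, and the fold change falls from 0.16 in the shortest to -0.08 in the longest class.

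Transcript length moved with the difference as well. Among 5 equal classes of genes, the shortest (median 827 nt) had a median log2 fold change of 0.16, with 319 of 2086 above at 30 min without overlap. The longest class (median 5052 nt) had a median of -0.08, with 5 of 2085 above and 132 below. Library 30 min C stood apart here. As log2(CPM + 0.5) relative to the mean of the 6 libraries, the median of the shortest class was 0.24 in 30 min C, -0.05 and -0.006 in the other 30 min libraries, and -0.10, -0.14 and 0.008 at 0 min. Within the shortest class, 38.8% of the cytosolic ribosomal genes and 41.8% of the oxidative phosphorylation genes lay above, against 15.3% of all genes of that length. After each library's trend with length was taken out, the medians were 0.38 for the cytosolic ribosome, 0.34 for oxidative phosphorylation and 0.02 for the mitochondrial ribosome. EloC (649 nt) then stood at 0.12, COX7B (417 nt) at 0.40 and Ilp5 (478 nt) at 0.55, while cbt (2088 nt) stood at 0.42 and daw (2821 nt) at 0.58. The fragment length that the deposited effective lengths imply was 370 nt for 0 min A and B and 336 nt for 0 min C and all 30 min libraries, so it partly follows the groups. Its part in these results was not tested beyond the fits with it as a term and with the libraries of 1 fragment length alone.

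Neuropeptide genes, which mark small sets of secretory neurons, had a median of 0.11. Of the 39 tested, 6 lay above at 30 min without overlap (6.31% of all genes tested and 15.3% of the shortest class did), and Ilp5 alone had an unadjusted p under 0.05. Akh, the adipokinetic hormone gene of the corpora cardiaca next to the brain, stood at 25.9, 23.04 and 20.9 CPM at 0 min and at 44.2, 46.4 and 37.9 CPM at 30 min (0.88 ± 0.45; unadjusted p = 0.0673). In 10-day brains it was at -2.03 ± 0.57, the opposite sign. The others of the 6 were Lk, SIFa, Hug and Tk. The clock genes tim and Clk were at -0.07 and -0.10, and cry, the blue-light receptor of clock neurons, stood at 72.7, 59.0 and 42.5 CPM at 0 min and at 73.9, 81.3 and 74.2 CPM at 30 min (0.40; unadjusted p = 0.288).

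Besides daw, the activin pathway showed little. Of the 17 genes of the TGF-beta list, daw was the only one with an unadjusted p under 0.05, and the median was -0.09. The type I receptor gene babo, through which daw is known to act, stood at 232, 272 and 269 CPM at 0 min and at 232, 214 and 221 CPM at 30 min (-0.21 ± 0.18). Among glial markers, repo was at 0.61 ± 0.27 and loco at 0.63 ± 0.29, while the list median was 0.02. Without 0 min B and C together, which leaves 0 min A alone, repo was at 0.08 and loco at 0.17. Rel, the NF-kappa-B factor gene of the Imd pathway, stood at 38.4, 36.9 and 30.5 CPM at 0 min and at 24.7, 25.8 and 30.8 CPM at 30 min (-0.38 ± 0.14; unadjusted p = 0.0151).

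Several stress, immune, gut and muscle genes were high in 1 or 2 of the 6 libraries. Hsp70Bb, a heat-inducible chaperone gene whose near-identical copies make its count uncertain, stood at 179 CPM in 0 min A and between 7.54 and 17.9 CPM elsewhere. AttC, an antibacterial attacin gene, stood at 4.35 and 5.50 CPM in 0 min A and B and between 0.228 and 0.509 CPM in the other 4 libraries. TotA, a humoral stress gene, stood at 38.2 CPM in 30 min C and between 0.817 and 3.55 CPM elsewhere, and its log2 fold change of 3.21 was 0.96 without that library. TotC, of the same Turandot family, stood at 0.111, 0.0491 and 0.184 CPM at 0 min and at 1.69, 0.351 and 16.1 CPM at 30 min. Its groups did not overlap, and its log2 fold change of 5.54 (unadjusted p = 0.00244, adjusted p = 0.879) was 2.92 without 30 min C. Of the 8 genes tested of the list of Turandot and JAK-STAT genes, 4 were higher at an unadjusted p under 0.05 and 0 passed. The 4 were TotA, TotC, TotM and TotX. Without 30 min C the log2 fold change of TotM went from 3.74 to 1.12 and that of TotX from 2.41 to 1.29. Of the 17 antimicrobial genes tested, 4 were lower and 1 higher at that p, and 0 passed. Among all genes tested, 1.04% were higher and 1.15% lower at that p. Muc68D, a mucin gene, stood at 2034 CPM in 30 min B and 123 CPM in 30 min C, and CG34220 at 7443 and 284 CPM, against at most 1.69 and 6.98 CPM in the other libraries. The protease gene Jon65Aiii, a midgut marker, stood at 17.1 CPM in 30 min B and at most 0.140 CPM elsewhere.

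Summed over the 21 midgut markers tested, the level was 334 CPM in 30 min B and between 1.74 and 28.9 CPM in the other 5 libraries. Of 8236 genes with a mean of 2 CPM or more, 26 lay at least 4-fold above the other 5 libraries in 0 min A and 32 in 30 min B, against 0 to 4 in each of the other libraries. Those of 0 min A included CG8329, a serine protease gene, at 139 CPM against at most 0.334 CPM. The muscle list summed to 838 and 1158 CPM in 0 min A and 30 min B and to between 216 and 436 CPM elsewhere, with Act88F, a flight muscle actin gene, at 9.82 CPM in 30 min B. The part of such tissue in the results above was not tested. Without 0 min A and 30 min B together, 0 genes passed.

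**Figure D5:**
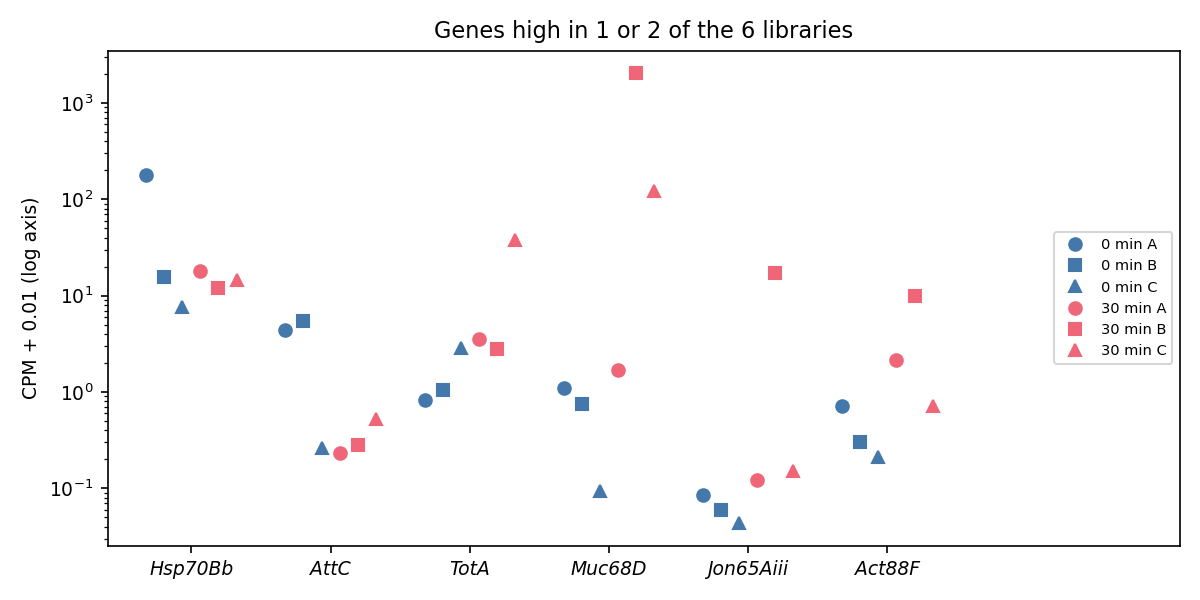
Level of 6 genes in each 5-day library as CPM + 0.01 on a log axis (blue, 0 min; red, 30 min). Hsp70Bb is high in 0 min A, AttC in 0 min A and B, TotA in 30 min C, and Muc68D, Jon65Aiii and Act88F in 30 min B.

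No gene passed edgeR's test of a difference in the 30 min response between ages. Of 10431 genes, 0 passed for the difference between 10-day and 5-day brains (322 with an unadjusted p under 0.05) and 0 for that between 25-day and 5-day brains (79). In the 25-day brains library B of each time stood apart from library A, with cytosolic ribosomal genes at -1.62 and -1.66 in B and at 0.75 and 0.72 in A, as log2 relative to the mean of the brain libraries. DESeq2 called 24 and 7 genes for these differences.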

How the data were processed

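Whole-brain RNA was extracted with Trizol and made into Illumina TruSeq v2 libraries, per the labels' protocols. The authors deposited an estimated count and a TPM value per transcript, made with kallisto 0.43.1, per the file headers and the submitters' processing notes. Strand and trimming settings are not stated there. The 30490 transcripts were matched to Ensembl BDGP6.54 genes (30255 matched, 13821 genes), and unmatched transcripts held 0.396% to 0.514% of a library. These counts were added up by gene and rounded to whole numbers, and the authors' TPM served in 1 alternative. Overlapping genes and near-identical copies carry an uncertain split.

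All 23 brain libraries shared 1 fit with edgeR 4.0.16 in R 4.3.3 (TMM, filterByExpr, robust quasi-likelihood F-test, 1 coefficient per group), with Benjamini-Hochberg adjustment over 10431 genes and a threshold of 0.05. Every p in the text is from this fit unless DESeq2 1.42.0 is named. Fold changes are log2 with the SE that the F-statistic implies. The series calls the replicates biological, and nothing in the labels says how flies were pooled, so p-values measure the spread between these libraries. Replicates differed by far more than counting noise, with 34.5 to 369 times the variance of counting alone. On simulated counts of 10359 genes, 39% of 2-fold and 90% of 4-fold changes were recovered in this comparison, and 5 unchanged genes passed. The changed genes were taken from those above a minimum level. Each gene was drawn on its own, with no shift of whole gene lists within a library. The shares recovered may therefore not hold for libraries that shift as these do.

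The 38 gene lists, the comparison and the rule for named genes were chosen with earlier results of these data known. The rule took the 12 genes per direction of smallest unadjusted p with a mean log2 CPM of at least 1, up to 4 members of each list, all activity-regulated genes and up to 5 genes from other contrasts. Others were chosen after their values were seen. Transcript length is the mean over a gene's annotated transcripts, weighted by estimated counts. Same-letter libraries of 0 and 30 min deviated together with correlations of -0.004, 0.026 and 0.43. The value for C stood out, since 0 min C was at -0.114 and -0.278 with 30 min A and B. The C libraries also held 42.2 to 62.0 M estimated counts across the 5-day times, against 19.3 to 29.5 M for A and B. Letters were not treated as pairs in the main fit. The part of the letter was not tested beyond the fit with the replicate as a block.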

Additional observations from a re-analysis of the deposited data

How the results depend on the processing

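No gene passed at 30 min in 5-day brains with the other size factors, with either filter, with the compared libraries alone, with limma (pseudocount 1 on TPM) or with the fragment length as a term, and leaving out each library gave 0 to 0. The number at an unadjusted p under 0.05 did move, from 229 in the main fit to 2357 with the fragment length as a term. It was 813 without 0 min A and between 108 and 264 without each of the other libraries, where 522 would fall there if no gene differed. The replicate block gave 0 genes, with 594 against 229 at an unadjusted p under 0.05, and not every library correlated best with its own letter. DESeq2 gave 13 at 5 days, 28 over the ages, and 24 and 7 for the differences of 10- and 25-day from 5-day brains. With the compared libraries alone the 10-day difference gave 1. Leaving out each library gave 0 to 85 over the ages and 0 to 108 for the 10-day difference, the highest without 30 min B of 10 days, and 0 to 0 for the other comparisons.

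Alternatives chosen after seeing the data were also run. With only the libraries of the same fragment length as 0 min C (336 nt), 1490 genes passed (1161 higher, 329 lower), and without 0 min B and C together 2 passed. Each of these fits has a single 0 min library, assumed to vary like the other groups. All 24 genes named by p kept their sign in all 18 alternatives, though 6 of the 12 higher and 5 of the 12 lower were smaller by over 1.5 times without 0 min B and C. The 24 were chosen by p on these same libraries, so keeping the sign was largely fixed by that choice. Of the activity-regulated genes, 7 of 15 kept their sign. Without 0 min B and C together the log2 fold change turned to -0.90 for Hr38, -0.023 for sr, -0.099 for kay, -0.0012 for Jra, -0.27 for Arc1 and -0.29 for Arc2. Leaving out single libraries moved Hr38 between -0.16 and 1.98 (-0.049 without 0 min B, -0.12 without 0 min C, -0.16 without 30 min A) and CG8910 between -0.038 (without 30 min A) and 0.23. Atf3 turned to 0.029 with the fragment length as a term. The cause was not tested. With 3 libraries a side, genes below about 1 CPM rest on few counts.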
